A study of Mus musculus with 6 samples.

Results

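The genes described here are 35 genes of the ATF4 response, of serine and one-carbon metabolism and of tRNA charging, taken by symbol from a table of read counts over 23337 mouse genes. All 35 were found in the table, and 34 had enough reads to be tested, the exception being the lipoprotein receptor gene Vldlr, with 10 reads in all pro-lymphoid libraries together and 6 in all pro-myeloid ones. The RNA came from mouse hematopoietic stem and progenitor cells (HSPCs) carrying the leukemia fusion oncogene MLL-AF9, which both groups share. A group of 3 libraries was made from cells in pro-lymphoid culture (replicates 1, 5 and 6) and a group of 3 from cells in pro-myeloid culture (replicates 2, 3 and 4). The mouse strain, the donor animals, the cytokines and any feeder cells of either culture are not stated in the labels, and neither is whether each library came from a culture of its own. The p-values therefore reflect only how far these libraries spread, which may be technical. Because the samples are bulk RNA, fewer cells of a type and less RNA per cell cannot be told apart.

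ATF4 is a basic leucine zipper transcription factor whose protein is made preferentially when the initiation factor eIF2 is phosphorylated, for instance by the kinase GCN2 on amino acid shortage or by PERK on stress of the endoplasmic reticulum (ER). With C/EBP partners it binds composite elements near genes that make, import and charge amino acids, among them asparagine synthetase, the serine pathway and many aminoacyl-tRNA synthetases. Since much of this control acts on translation, the mRNA level of Atf4 itself is not a measure of ATF4 protein. Serine made by PHGDH, PSAT1 and PSPH from a glycolytic intermediate is split by SHMT enzymes into glycine and a one-carbon unit, which MTHFD2 and MTHFD1L carry through the mitochondrion for nucleotide synthesis in dividing cells.

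Most of these genes did not pass the test between the cultures, and those that did moved in both directions. Of the 34 tested genes, 2 rose in pro-lymphoid culture, Phgdh and Shmt1, and 3 fell, Psph, Nupr1 and Stc2 (edgeR quasi-likelihood test, Benjamini-Hochberg adjusted p under 0.05 over all 12477 tested genes). Over all tested genes 38.6% passed, 17.4% as higher and 21.3% as lower in pro-lymphoid culture. The median log2 fold change, pro-lymphoid minus pro-myeloid throughout, was -0.106 over the 34 genes and -0.000195 over all tested genes. The pro-lymphoid libraries lay wholly above the pro-myeloid ones for 3 of the genes and wholly below for 4, against 26.4% and 27.2% of all tested genes (53.6% in either direction). Myeloid replicate 2 stood apart from the other pro-myeloid libraries on the second principal component (52.89 against -32.02 and -19.50). This component held 7.91% of the variance, against 82.3% for the first. Without myeloid replicate 2, 6 of the genes fell, the additional ones being Atf5, Ddit4 and Trib3. In that fit 22.8% of all tested genes were lower. Without lymphoid replicate 6, 2 of the genes fell, Nupr1 losing its call, and 14% of all tested genes were lower.

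**Figure D1:**
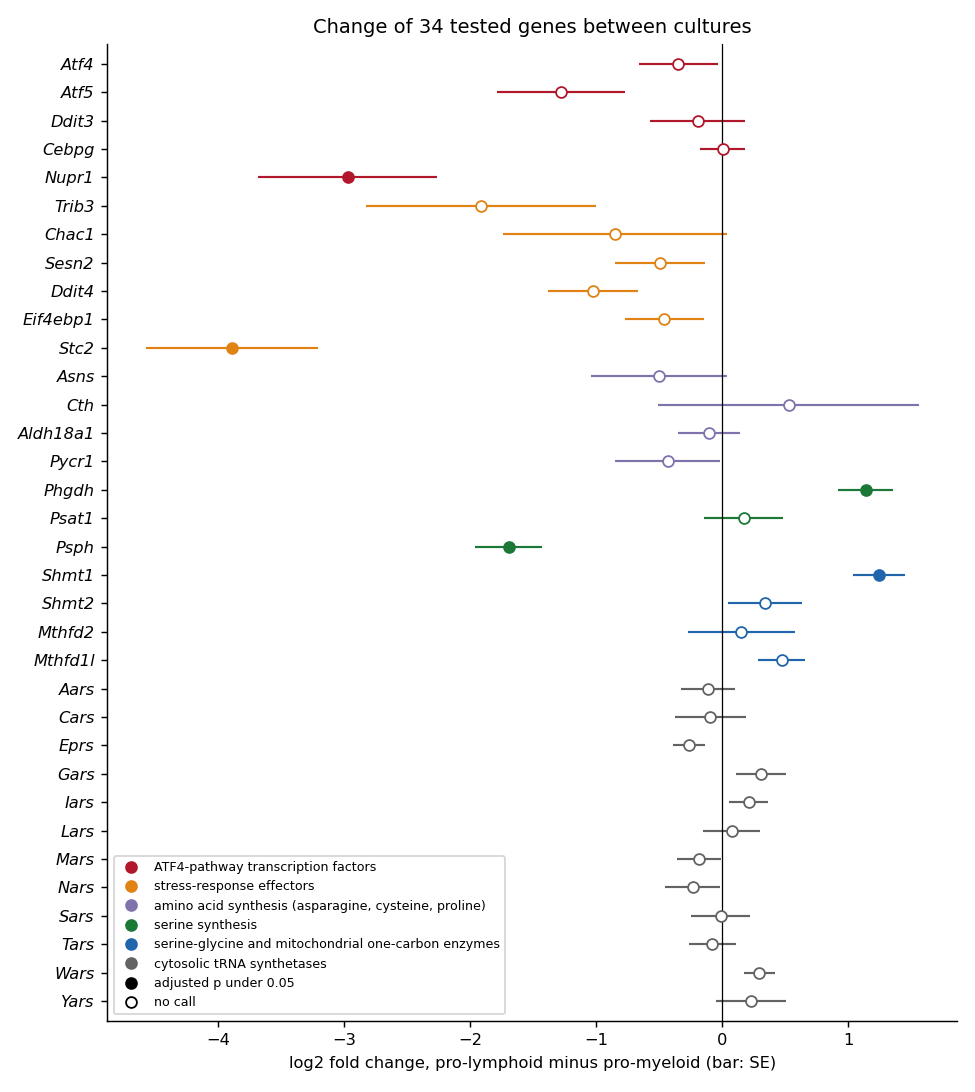
Log2 fold change (x axis, pro-lymphoid minus pro-myeloid culture) of 34 tested genes (y axis, coloured by role), with the SE as a bar, filled where the edgeR adjusted p was under 0.05. Stc2 lies farthest to the left at -3.89 and Shmt1 farthest to the right among the filled points at 1.24, while all 12 synthetase genes are open and lie between -0.26 and 0.30.

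The libraries held 34972488 to 46724382 counts, so that 3 counts in a library stood for 0.0642 to 0.0858 CPM (the usual library-scaled read count, here with TMM factors). The 35 genes together took 0.466% to 0.677% of the counts of a pro-lymphoid and 0.399% to 0.639% of those of a pro-myeloid library. Of 6 lymphoid priming markers 6 were higher in pro-lymphoid culture, at a summed 477 to 738 against 1.30 to 31.3 CPM, and of 8 granulocyte and monocyte markers 7 were lower there. Of the 8 progenitor markers 3 were higher and 3 lower, the latter falling to 1 without lymphoid replicate 1, 5 or 6. Of 10 stromal and endothelial markers, 5 had 0 counts in all libraries, Col1a2, Col3a1, Lum and Dcn among them, and the summed level of 250 to 307 against 326 to 360 CPM was mostly Pecam1, an adhesion molecule gene that hematopoietic cells also express. In the same list Col1a1 was lower in pro-lymphoid culture (4 against 84 counts in all, edgeR adjusted p = 0.00777), Cdh5 was higher (6.66-fold, adjusted p = 0.0021), and Pdgfrb reached 19.4 CPM in lymphoid replicate 6 with overlapping groups. Markers of T and NK cells summed to at most 1.05 CPM, and the 1 tested, Klrb1c, was higher in pro-lymphoid culture (edgeR adjusted p = 0.0284). Those of erythroid, megakaryocyte and mast cells summed to 2.28 to 7.38 CPM in pro-lymphoid against 11.4 to 33.4 CPM in pro-myeloid libraries, and 2 of the 4 tested were lower, Mcpt8 (9.97-fold, edgeR adjusted p = 0.00366) and Ms4a2 (3 against 227 counts in all, adjusted p = 0.000243). The part of these other cell types in the results for the 35 genes was not tested.

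Promoter sequences are given for 6 of the genes, because the composite element read by ATF4 and C/EBP proteins can be seen in the letters of some of them and not of others. The windows are the 250 bases before the gene start in RefSeq (GRCm38.p6, the assembly that mm10 names), written 5′ to 3′ on the strand of the gene, and capitals mark matches to TGATGNAA or to its reverse complement. Asns (chr6:7693210-7693459, minus strand), Chac1 (chr2:119350992-119351241, plus strand), Tars (chr15:11399659-11399908, minus strand) and Nupr1 (chr7:126625471-126625720, minus strand) each hold a match. The serine synthesis genes Phgdh (chr3:98339970-98340219, minus strand) and Psph (chr5:129787254-129787503, minus strand), which changed in opposite directions, hold none in these windows.
Asns: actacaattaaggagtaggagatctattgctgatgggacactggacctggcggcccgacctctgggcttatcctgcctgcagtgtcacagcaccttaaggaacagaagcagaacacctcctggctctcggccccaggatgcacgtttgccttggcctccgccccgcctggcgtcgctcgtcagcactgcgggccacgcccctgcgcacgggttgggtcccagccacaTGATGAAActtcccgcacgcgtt
Chac1: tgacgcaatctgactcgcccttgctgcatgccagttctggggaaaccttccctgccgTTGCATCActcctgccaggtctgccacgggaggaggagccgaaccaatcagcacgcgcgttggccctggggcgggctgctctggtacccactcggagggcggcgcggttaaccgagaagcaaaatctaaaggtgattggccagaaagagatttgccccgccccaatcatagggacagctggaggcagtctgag
Tars: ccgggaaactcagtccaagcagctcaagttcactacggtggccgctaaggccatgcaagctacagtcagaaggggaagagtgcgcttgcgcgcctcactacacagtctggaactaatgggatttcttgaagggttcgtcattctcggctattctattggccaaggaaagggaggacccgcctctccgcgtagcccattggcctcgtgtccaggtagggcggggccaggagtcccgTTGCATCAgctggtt
Nupr1: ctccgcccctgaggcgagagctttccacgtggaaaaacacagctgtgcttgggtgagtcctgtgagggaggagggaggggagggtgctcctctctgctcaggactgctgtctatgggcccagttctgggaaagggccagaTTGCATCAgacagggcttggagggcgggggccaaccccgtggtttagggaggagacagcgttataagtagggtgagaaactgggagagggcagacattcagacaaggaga
Phgdh: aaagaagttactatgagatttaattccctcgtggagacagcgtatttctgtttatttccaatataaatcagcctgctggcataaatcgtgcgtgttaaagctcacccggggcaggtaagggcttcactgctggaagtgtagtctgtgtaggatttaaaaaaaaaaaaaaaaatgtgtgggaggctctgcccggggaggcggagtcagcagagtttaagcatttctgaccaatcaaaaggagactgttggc
Psph: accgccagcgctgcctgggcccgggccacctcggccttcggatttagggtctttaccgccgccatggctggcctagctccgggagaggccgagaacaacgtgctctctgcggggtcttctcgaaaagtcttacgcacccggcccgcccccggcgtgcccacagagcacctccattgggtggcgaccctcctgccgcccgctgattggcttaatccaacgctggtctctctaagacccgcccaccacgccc

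Promoter windows, here of 300 bases with 50 of them after the gene start, were found by symbol for 28 of the 35 genes (not for Eif4ebp1, Cth, Cars, Lars, Mars, Nars and Wars). The motif, searched on both strands, was present in at least 1 window for 11 of the 28 (39.3%) and for 4.51% of all 27025 genes with a window. The 11 were Nupr1, Trib3, Chac1, Vldlr, Asns, Pycr1, Aars, Gars, Iars, Tars and Yars, so 5 of the 7 synthetases with a window held it. In Asns the match began 23 bases before the RefSeq gene start, in Gars 30 and in Tars 15 bases before it, in Pycr1 103, in Nupr1 110, in Chac1 193 and in Vldlr 200 bases before it. Aars held 2 matches, 112 bases before and 9 bases after the start. For Asns, Pycr1, Aars and Yars the annotation used for counting sets the start elsewhere, by 27, 78 and 125 bases farther downstream and 108 bases farther upstream. A match is a description of these letters and not a binding site. The list was made in part of known ATF4 targets, so a higher share among them is no result of these data. No test of the shares was made. The 10 tested genes with a match had a median log2 fold change between the cultures of -0.271 and the 17 without one of -0.102.

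Among the transcription factor genes, Nupr1 fell and the others did not pass. Atf4 stood at 197, 379 and 271 CPM (lymphoid replicates 1, 5, 6) against 227, 396 and 456 CPM (myeloid replicates 2, 3, 4). The groups overlapped, and the SD within each (91.7 and 119 CPM) was larger than the difference between their means (log2 fold change -0.35 ± 0.31, SE, edgeR adjusted p = 0.410). Per kilobase of exon, Atf4 had the highest mean of the 35 genes in pro-myeloid culture, 208 ± 68.8 CPM per kb (SD, n = 3), but Phgdh at 191 ± 48.8 and Shmt2 at 174 ± 63.8 CPM per kb lay within its spread. It stood at 164 ± 53.2 CPM per kb in pro-lymphoid culture.

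Nupr1, which encodes a small chromatin-associated protein induced by many stresses, stood at 0.895, 6.01 and 1.16 CPM (lymphoid replicates 1, 5, 6) against 10.4, 29.0 and 23.6 CPM (myeloid replicates 2, 3, 4). All pro-lymphoid values lay below all pro-myeloid ones, with lymphoid replicate 5 and myeloid replicate 2 the nearest to each other. Nupr1 was 7.84-fold lower in pro-lymphoid culture (log2 fold change -2.97 ± 0.71, edgeR adjusted p = 0.0149; mm10, chromosome 7, 126623246 to 126625470). The call was lost without lymphoid replicate 6 (adjusted p = 0.0584), and the log2 fold change was -4.33 without lymphoid replicate 5.

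Atf5, a relative of Atf4 that is also controlled through translation, stood at 10.2, 20.3 and 10.7 CPM in the pro-lymphoid libraries against 13.0, 53.3 and 33.9 CPM in the pro-myeloid ones (log2 fold change -1.28 ± 0.50, edgeR adjusted p = 0.0824). Its groups overlapped through myeloid replicate 2, without which it was lower in pro-lymphoid culture (adjusted p = 0.00820). Ddit3, which encodes CHOP, stood at 6.78, 13.0 and 8.59 CPM against 5.83, 12.4 and 14.2 CPM (log2 fold change -0.19 ± 0.38, edgeR adjusted p = 0.710). Cebpg, a C/EBP partner of ATF4, had overlapping levels, at 65.9, 79.9 and 59.6 CPM against 55.0, 68.4 and 81.2 CPM, with a log2 fold change of 0.0042 ± 0.18.

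The 6 tested stress-response effector genes all had negative log2 fold changes, and of these Stc2 alone passed the test. Stc2, which encodes the secreted glycoprotein stanniocalcin 2, stood at 0.109, 2.48 and 1.33 CPM (lymphoid replicates 1, 5, 6) against 10.7, 19.8 and 28.0 CPM (myeloid replicates 2, 3, 4). The groups were far apart, the highest pro-lymphoid library lying below the lowest pro-myeloid one. Stc2 was 14.8-fold lower in pro-lymphoid culture (log2 fold change -3.89 ± 0.68, edgeR adjusted p = 0.00434; chromosome 11, 31359441 to 31370061). Its log2 fold change was -4.69 without lymphoid replicate 5 and the call held without each library, the largest adjusted p being 0.0262 without lymphoid replicate 6.

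Trib3, a pseudokinase gene that ATF4 induces and that feeds back on it, stood at 1.52, 14.7 and 3.09 CPM in the pro-lymphoid libraries against 5.23, 35.5 and 31.99 CPM in the pro-myeloid ones (log2 fold change -1.91 ± 0.91, edgeR adjusted p = 0.137). Lymphoid replicate 5 lay above myeloid replicate 2, and leaving out either of these libraries gave a call (adjusted p = 0.0330 and 0.0385). Chac1, which encodes a glutathione-degrading enzyme, stood at 4.61, 31.3 and 7.07 CPM against 4.58, 32.6 and 40.0 CPM, so that each culture held libraries of low and of high level (log2 fold change -0.85 ± 0.89, edgeR adjusted p = 0.481).

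Another 3 genes restrain growth signalling through mTORC1 or cap-dependent translation. Ddit4, which encodes the mTORC1 inhibitor REDD1, stood at 17.03, 24.6 and 14.5 CPM in the pro-lymphoid libraries against 20.1, 50.3 and 44.0 CPM in the pro-myeloid ones (log2 fold change -1.03 ± 0.36, edgeR adjusted p = 0.0560), and it was lower without myeloid replicate 2 (adjusted p = 0.00425) and in DESeq2 (adjusted p = 0.0150). Sesn2, a leucine-sensing inhibitor of mTORC1, stood at 24.1, 39.6 and 19.9 CPM against 22.2, 49.6 and 45.8 CPM (log2 fold change -0.49 ± 0.36, edgeR adjusted p = 0.313). Eif4ebp1, the gene of a repressor of cap-dependent translation, stood at 60.9, 116 and 77.8 CPM against 72.0, 141 and 137 CPM (log2 fold change -0.46 ± 0.31, edgeR adjusted p = 0.280).

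**Figure D2:**
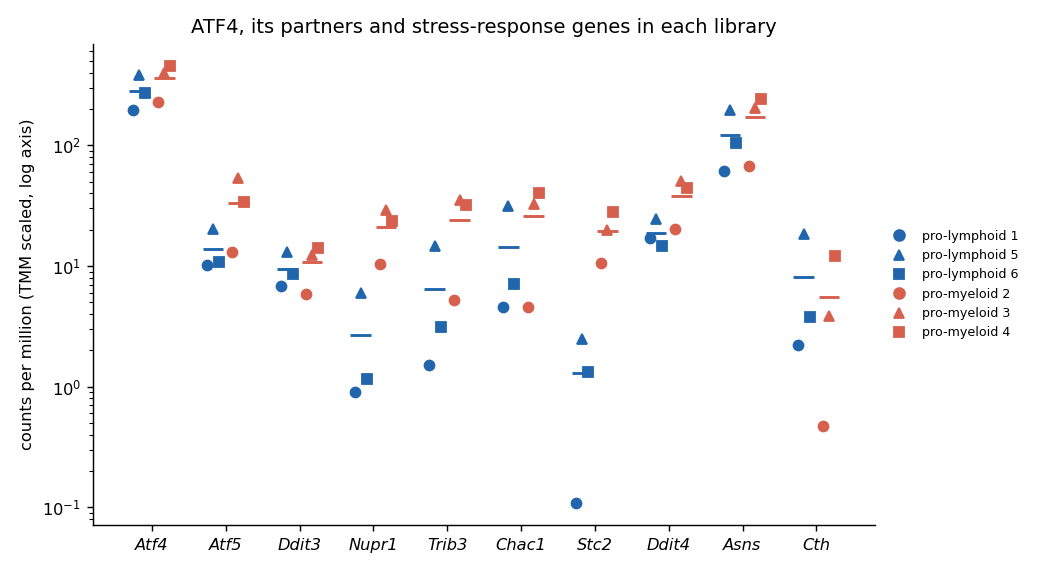
TMM-scaled CPM (y axis, log scale) of Atf4, Atf5, Ddit3, Nupr1, Trib3, Chac1, Stc2, Ddit4, Asns and Cth (x axis) in each of 3 pro-lymphoid (blue) and 3 pro-myeloid (red) libraries, bars marking the group means. Nupr1 and Stc2 separate by culture, whereas Chac1 runs from 4.61 to 31.3 CPM in the pro-lymphoid libraries and from 4.58 to 40.0 CPM in the pro-myeloid ones.

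None of the 4 genes of asparagine, cysteine and proline synthesis passed the test. Asns, whose enzyme makes asparagine, stood at 60.99, 198 and 104 CPM (lymphoid replicates 1, 5, 6) against 67.2, 205 and 242 CPM (myeloid replicates 2, 3, 4; log2 fold change -0.50 ± 0.54, edgeR adjusted p = 0.493). The lowest library of each culture was close to that of the other, and lymphoid replicate 5 lay near myeloid replicate 3. Cth, which encodes the cysteine-forming enzyme cystathionine gamma-lyase, varied widely, at 2.22, 18.4 and 3.75 CPM against 0.469, 3.85 and 12.2 CPM (log2 fold change 0.53 ± 1.03, edgeR adjusted p = 0.713). Its direction turned, to a log2 fold change of -0.90, without lymphoid replicate 5. The proline synthesis genes Aldh18a1 and Pycr1 had log2 fold changes of -0.10 ± 0.24 and -0.43 ± 0.42. Aldh18a1 stood at 119, 191 and 149 CPM in the pro-lymphoid libraries against 119, 163 and 210.4 CPM in the pro-myeloid ones, and Pycr1 at 9.25, 24.2 and 16.4 CPM against 12.3, 26.4 and 28.5 CPM.

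The 3 enzymes of serine synthesis did not move together. Phgdh, which encodes the first and committed enzyme, stood at 659.5, 877 and 826 CPM (lymphoid replicates 1, 5, 6) against 428, 255 and 390.1 CPM (myeloid replicates 2, 3, 4). Every pro-lymphoid library was above every pro-myeloid one, and Phgdh was 2.20-fold higher there (log2 fold change 1.14 ± 0.22, edgeR adjusted p = 0.00625; chromosome 3, 98313171 to 98339969). Psat1, the aminotransferase of the middle step, stood at 247, 448 and 371 CPM against 226, 258 and 463 CPM with overlapping groups (log2 fold change 0.17 ± 0.32, edgeR adjusted p = 0.696). Psph, the phosphatase of the last step, stood at 15.1, 16.5 and 17.9 CPM in the pro-lymphoid libraries against 35.3, 51.1 and 73.8 CPM in the pro-myeloid ones. Its pro-lymphoid values were the more uniform, the SD being 1.43 CPM against 19.4 CPM, and Psph was 3.23-fold lower there (log2 fold change -1.69 ± 0.27, edgeR adjusted p = 0.00266; chromosome 5, 129765558 to 129787253). The calls of Phgdh and Psph held without each library in turn and with each other scaling, filter and tool.

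Compared per kilobase of exon, Phgdh was the most abundant of the 35 genes in pro-lymphoid culture at 421 ± 60.7 CPM per kb (SD, n = 3), against 191 ± 48.8 CPM per kb in pro-myeloid culture. Psph stood at 10.7 ± 0.930 against 34.7 ± 12.6 CPM per kb. The ratio of Phgdh to Psph within a library does not depend on the scaling between libraries. It was 35.9, 43.6 and 37.8 (lymphoid replicates 1, 5, 6) against 9.96, 4.10 and 4.34 (myeloid replicates 2, 3, 4). The ratio of Psat1 to Psph was 10.1, 16.7 and 12.8 against 3.95, 3.12 and 3.87, also without overlap. These ratios were chosen after the values were seen and were not tested.

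Among the serine-using and one-carbon enzymes, the cytosolic Shmt1 rose and the 3 mitochondrial genes did not pass. Shmt1 stood at 93.7, 115 and 122 CPM (lymphoid replicates 1, 5, 6) against 53.2, 32.7 and 53.3 CPM (myeloid replicates 2, 3, 4). The groups did not overlap, and Shmt1 was 2.37-fold higher in pro-lymphoid culture (log2 fold change 1.24 ± 0.21, edgeR adjusted p = 0.00369; chromosome 11, 60788897 to 60811265), a call that held without each library. Shmt2, its mitochondrial counterpart, stood at 378, 642 and 506 CPM against 274, 367 and 562 CPM (log2 fold change 0.34 ± 0.29, edgeR adjusted p = 0.390). Shmt2 remained the more abundant of the pair in every library, the ratio of Shmt1 to Shmt2 per kilobase being 0.277, 0.199 and 0.269 against 0.217, 0.0995 and 0.106, with overlapping groups.

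Mthfd2, the mitochondrial folate dehydrogenase of proliferating cells, stood at 119.7, 240.1 and 152 CPM in the pro-lymphoid libraries against 67.9, 178 and 214 CPM in the pro-myeloid ones (log2 fold change 0.15 ± 0.42, edgeR adjusted p = 0.800). Mthfd1l, which releases formate from the mitochondrial pathway, stood at 112, 131 and 161 CPM against 86.2, 85.5 and 119.9 CPM. Its log2 fold change of 0.47 ± 0.19 did not pass (edgeR adjusted p = 0.0824), and it passed without myeloid replicate 4 (adjusted p = 0.0402).

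**Figure D3:**
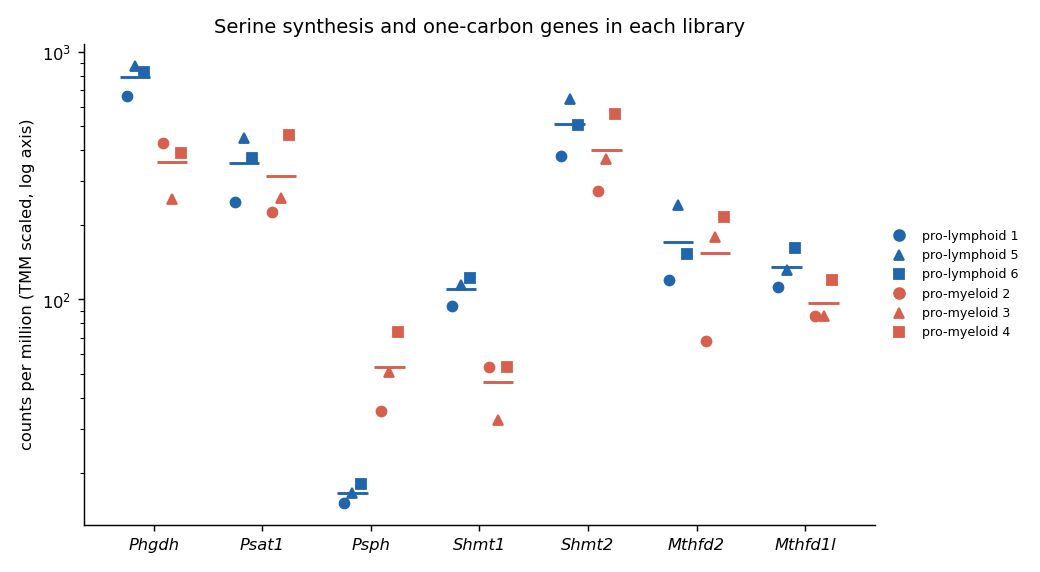
TMM-scaled CPM (y axis, log scale) of the serine synthesis genes Phgdh, Psat1 and Psph and the one-carbon genes Shmt1, Shmt2, Mthfd2 and Mthfd1l (x axis) in 3 pro-lymphoid (blue) and 3 pro-myeloid (red) libraries, bars marking the group means. Phgdh and Shmt1 lie higher in every pro-lymphoid library and Psph lower, while Psat1, Shmt2, Mthfd2 and Mthfd1l overlap between the cultures.

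The 12 cytosolic aminoacyl-tRNA synthetases, which load amino acids onto their tRNAs, gave no call in either direction. Their log2 fold changes ran from -0.26 to 0.30 with a median of -0.0458, and 5 were positive and 7 negative. Their summed level was 2213, 3134 and 2685 CPM (lymphoid replicates 1, 5, 6) against 2156, 2823 and 3167 CPM (myeloid replicates 2, 3, 4). A miss of the threshold does not show equal levels, and the SE of single genes ran up to 0.28, as for Cars (-0.09 ± 0.28) and Yars (0.23 ± 0.28).

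The groups parted without overlap for Eprs and Wars, both without a call. Eprs, the bifunctional glutamyl-prolyl synthetase gene, stood at 272, 294 and 328 CPM in the pro-lymphoid libraries against 330.5, 345 and 397 CPM in the pro-myeloid ones (log2 fold change -0.26 ± 0.13, edgeR adjusted p = 0.141). Wars, the tryptophanyl synthetase gene, which interferon is known to induce, stood at 98.2, 117 and 108 CPM against 88.0, 78.4 and 97.7 CPM (log2 fold change 0.30 ± 0.13, edgeR adjusted p = 0.101). Gars and Iars, for glycine and isoleucine, had log2 fold changes of 0.30 ± 0.20 and 0.21 ± 0.15, and Nars and Mars, for asparagine and methionine, of -0.24 ± 0.22 and -0.19 ± 0.17. Aars, Lars, Sars and Tars, for alanine, leucine, serine and threonine, lay between -0.11 and 0.07. The directions of Aars, Cars, Lars, Sars, Tars and Yars each flipped when some single library was left out, and that of Sars also with upper-quartile or no scaling and in limma-voom.

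Per kilobase, the most abundant synthetases in pro-lymphoid culture were Nars and Gars at 127 ± 30.4 and 127 ± 19.9 CPM per kb, which did not differ beyond their spread, and the least abundant were Wars at 37.5 ± 3.34 and Cars at 30.1 ± 9.11 CPM per kb. In pro-myeloid culture Nars stood at 149.9 ± 30.4, Gars at 103 ± 24.6, Cars at 32.1 ± 9.46 and Wars at 30.5 ± 3.34 CPM per kb. Nars and Gars were thus the highest and Cars and Wars the lowest of the 12 in both cultures.

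Some of the genes share exonic bases with a neighbour in the counting annotation. Reads that touch both genes are assigned to neither by the counting command in the file header. Ddit3 and Mars overlap by 136 bases on opposite strands, Aars and Exosc6 by 532 bases on the same strand, and Atf5 and Nup62 by 64 bases on opposite strands. Strand was not used in the counting, so reads over shared bases are left out of both counts on opposite strands too. The levels per kilobase were divided by the full exon length, with the shared bases included.

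Within each culture most of the genes took the same order over the libraries. In pro-lymphoid culture replicate 1 was the lowest library for 31 of the 34 tested genes and replicate 5 the highest for 30, against 39.4% and 32.9% of all tested genes. In pro-myeloid culture replicate 2 was the lowest for 30 and replicate 4 the highest for 25, against 39.6% and 25.9% of all tested genes. Both lymphoid replicate 1 and myeloid replicate 2 were lowest for 27 of the 34, against 19.0% of all tested genes. The genes share libraries, depth and scaling, so their orders are not independent, and no test was made.

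The size of this spread varied between the genes. The level in lymphoid replicate 5 over that in replicate 1 was 22.9-fold for Stc2, 9.68-fold for Trib3, 8.25-fold for Cth, 6.78-fold for Chac1, 6.72-fold for Nupr1 and 3.24-fold for Asns. It was 1.93-fold for Atf4 and 1.08-fold to 1.78-fold for the synthetases, with Eprs the lowest and Cars the highest. Over all tested genes the median of this ratio was -0.00487 on the log2 scale, and over the 34 genes it was 0.704.

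In pro-myeloid culture the ratio of replicate 4 to replicate 2 was 26.0-fold for Cth, 8.73-fold for Chac1, 6.11-fold for Trib3, 3.60-fold for Asns and 3.16-fold for Mthfd2. Its median on the log2 scale was 0.940 over the 34 genes and 0.00411 over all tested genes. The order of Atf4 was kept in both cultures by 19 of the 34 genes, Atf4 included, against 5.01% of all tested genes. Among the others Phgdh, Shmt1, Mthfd1l and Wars had their lowest pro-myeloid level in replicate 3. Myeloid replicate 2 held the highest pro-myeloid level of Phgdh, 428 CPM, and for Shmt1 myeloid replicates 2 and 4 were nearly equal at 53.2 and 53.3 CPM. The genes with a promoter match had a median log2 ratio of 1.05 for lymphoid replicate 5 over 1 and those without one of 0.69, and for myeloid replicate 4 over 2 the medians were 1.07 and 1.03.

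The median coefficient of variation between the 3 libraries over the 34 genes was 25.2% for pro-lymphoid and 32.6% for pro-myeloid culture, against 12.7% and 16.8% over all tested genes. Other measures also set these libraries apart. On the second principal component, lymphoid replicates 1, 6 and 5 stood at 19.63, -3.79 and -17.20 and myeloid replicate 2 at 52.89. Lymphoid replicate 1 had the fewest counts of all libraries, 34972488, whereas myeloid replicate 2 with 38199484 counts was deeper than myeloid replicate 3 with 35162603. The summed level of 8 proliferation genes was 3626, 3762 and 3814 CPM (lymphoid replicates 1, 5, 6) against 3472, 1975 and 2718 CPM (myeloid replicates 2, 3, 4). Lymphoid replicate 1 was lowest for 7 of these 8 and replicate 5 highest for 6, against 39.4% and 32.9% of all tested genes. Myeloid replicate 2 was lowest for 0 of the 8 and replicate 4 highest for 2, against 39.6% and 25.9%. The summed level of the 6 lymphoid priming markers was 530, 738 and 477 CPM in lymphoid replicates 1, 5 and 6. Replicate 1 was lowest for 2 of them and replicate 5 highest for 3, with Ly6d at 1.03, 124 and 23.2 CPM. The 8 granulocyte and monocyte markers summed to 5941, 7574 and 9765 CPM in myeloid replicates 2, 3 and 4. Replicate 2 was lowest for 3 of them and replicate 4 highest for 4, with Mpo at 148, 1511 and 3304 CPM. The part of these measures in the order of the libraries was not tested.

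**Figure D4:**
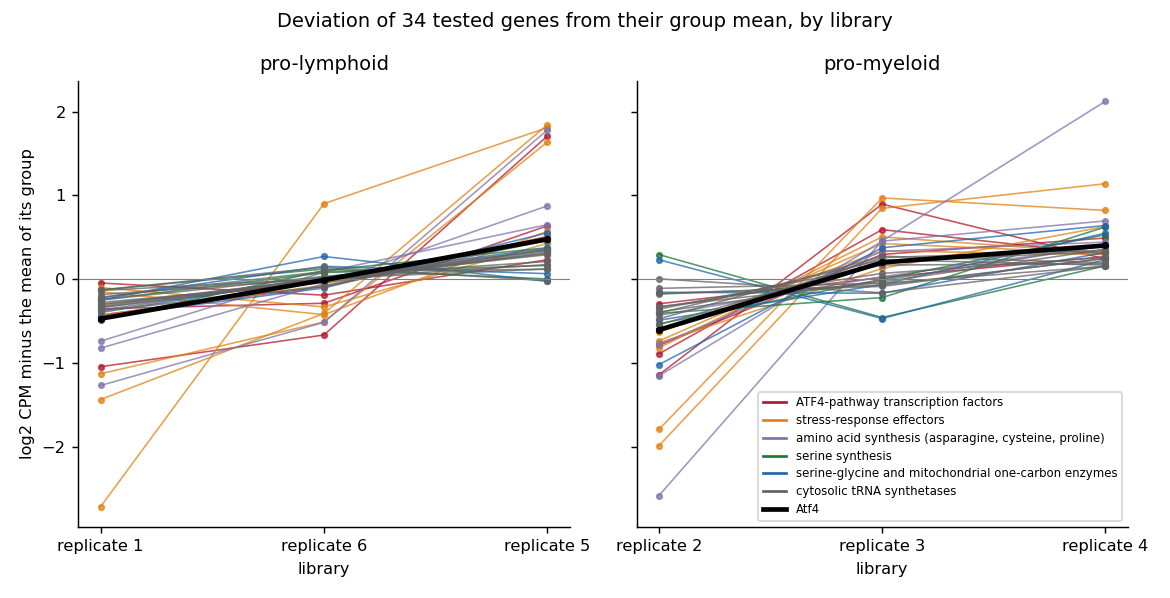
Log2 CPM of 34 tested genes minus the mean of their culture (y axis) in the 3 pro-lymphoid and 3 pro-myeloid libraries (x axis, ordered by the level of Atf4, drawn in black), each line being 1 gene coloured by role. Lymphoid replicate 1 is lowest for 31 genes and myeloid replicate 2 for 30. The steepest lines are those of Stc2, Trib3, Cth and Chac1 in pro-lymphoid culture and of Cth, Chac1 and Trib3 in pro-myeloid culture.

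Other genes of the pathway were read from lists made with earlier results of these data known. Of 19 tested other ATF4 target genes, 3 rose and 1 fell (median log2 fold change 0.113), against 38.6% of all tested genes in either direction. The median was -0.157 without lymphoid replicate 5 and -0.0388 without myeloid replicate 2. In the latter fit 3 rose and 3 fell of 20 tested, against 19.4% and 22.8% of all tested genes. Got1, a cytosolic aspartate aminotransferase gene, rose by 1.52 ± 0.12 (69.5 ± 2.90 CPM in pro-lymphoid against 24.2 ± 1.63 in pro-myeloid libraries, SD, n = 3, edgeR adjusted p = 0.000119), and Bbc3, which encodes the apoptosis inducer PUMA, by 1.02 ± 0.19. Ero1a, an oxidase gene of the ER, fell by 1.49 ± 0.23. The arginine transporter gene Slc7a1 rose by 0.57 ± 0.19 with overlapping groups (edgeR adjusted p = 0.0499), a call lost in 7 of the 14 other settings. Lymphoid replicate 1 was the lowest pro-lymphoid library for 13 of the 19 (39.4% of all tested genes). Myeloid replicate 2 was the lowest pro-myeloid one for 13 (39.6% of all tested genes).

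Another list held 16 genes, for eIF2 and its kinases, regulators of the kinase GCN2, the eIF2 phosphatase and eIF2B. Of these, 1 rose and 3 fell, against 38.6% of all tested genes in either direction. Ppp1r15b, the constitutive phosphatase subunit that reverses eIF2 phosphorylation, fell by 0.70 ± 0.12 (155 ± 9.99 against 253 ± 29.7 CPM, edgeR adjusted p = 0.00431), and Eif2ak2, the gene of the RNA-activated kinase PKR, by 0.68 ± 0.12. The eIF2B subunit genes Eif2b2 and Eif2b3 changed by -0.49 ± 0.13 and 0.49 ± 0.14, and neither call held when lymphoid replicate 5 or 6 or myeloid replicate 3 or 4 was left out, nor that of Eif2b2 when lymphoid replicate 1 was. The kinase genes Eif2ak1, Eif2ak3 and Eif2ak4 gave no call, with log2 fold changes of 0.01, 0.05 and 0.39 (edgeR adjusted p = 0.97, 0.842 and 0.0535). The groups overlapped for Eif2ak1 and Eif2ak3. For Eif2ak4, the GCN2 gene, they did not, at 46.4, 36.58 and 44.46 CPM in pro-lymphoid against 31.71, 32.06 and 33.35 CPM in pro-myeloid libraries.

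Synthetase genes outside the 35 were read in the same way. Of 11 further cytosolic synthetase and scaffold genes, 3 rose, Vars by 0.56 ± 0.13, Kars by 0.52 ± 0.13 and Hars by 0.38 ± 0.12, and Farsb fell by 0.40 ± 0.13, so that 4 of 11 passed against 38.6% of all tested genes. These calls were fragile, 0 of them being kept without lymphoid replicate 5 or 6. Of 17 mitochondrial synthetase genes 1 passed, Hars2, rising by 0.58 ± 0.17 (edgeR adjusted p = 0.0292). Its call was lost without lymphoid replicate 1 or 6 and without myeloid replicate 2, 3 or 4. In DESeq2 3 of the 17 were higher and 1 lower, against 20.2% and 23.3% of all tested genes. Without myeloid replicate 2 the edgeR test gave 0 higher and 2 lower, against 19.4% and 22.8% of all tested genes. The next by adjusted p were Lars2, Mars2 and Pars2 at -0.85 ± 0.32, 0.62 ± 0.24 and 0.42 ± 0.17 without a call. Lymphoid replicate 5 was the highest pro-lymphoid library for 3 of the 11, 1 of the 17 and 11 of the 12 listed cytosolic synthetases (32.9% of all tested genes). Lymphoid replicate 1 was the lowest for 10, 5 and 12 of them (39.4% of all tested genes). In pro-myeloid culture, replicate 2 was the lowest for 3, 10 and 11 (39.6% of all tested genes). Myeloid replicate 4 was the highest for 8, 11 and 10 (25.9% of all tested genes). The differences between these lists were not tested.

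Folate genes beside the listed one-carbon enzymes gave 6 higher and 2 lower of 18 tested (median log2 fold change 0.439), against 17.4% higher and 21.3% lower over all tested genes. The number higher was 4 to 6, and the number lower 1 to 2, with any single library left out, while the share of all tested genes that were higher ran from 10.2% to 19.4%. The folate carrier gene Slc19a1 rose by 0.86 ± 0.16 and Fpgs, which adds the glutamate tail that keeps folates in the cell, by 0.80 ± 0.16. Atic, an enzyme gene of purine synthesis, rose by 0.89 ± 0.18. Aldh1l1, which encodes a cytosolic enzyme that oxidises formyl-tetrahydrofolate to carbon dioxide, had 4 reads over the pro-lymphoid libraries and 962, 647 and 555 reads in the pro-myeloid ones (fitted log2 fold change -8.98 ± 0.49, edgeR adjusted p = 8.27e-07). Among 8 proliferation genes 2 passed as higher in pro-lymphoid culture and 0 as lower, at a median log2 fold change of 0.468. The 2 became 6 without myeloid replicate 2 and 0 without lymphoid replicate 5 or 6. In those fits 19.4%, 11.5% and 10.2% of all tested genes were higher. The part of proliferation in the folate result was not tested.

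Most ER chaperone and unfolded protein genes were lower in pro-lymphoid culture. Of 16 tested genes, 12 fell and 0 rose, against 21.3% lower over all tested genes, with all 16 log2 fold changes negative and a median of -0.557. Ern1, the gene of the ER stress sensor IRE1, fell by 1.09 ± 0.13 (58.4 ± 8.16 against 124 ± 2.07 CPM, edgeR adjusted p = 0.00072), Xbp1, its mRNA target, by 1.34 ± 0.19, Edem1 by 1.41 ± 0.24 and Dnajc3, an inhibitor of eIF2 kinases, by 0.80 ± 0.12. The number that fell was 6 without lymphoid replicate 5 or 6, 8 without lymphoid replicate 1 and 9 to 12 without any single pro-myeloid library. Over all tested genes the share that fell was 16.3%, 14% and 18.7% without lymphoid replicates 5, 6 and 1. That share was 22.8%, 17.6% and 16.6% without myeloid replicates 2, 3 and 4. Without scaling factors 8 of the ER genes fell, against 19.4% of all tested genes. In myeloid replicate 2, the lowest pro-myeloid library for most of the 34 ATF4-related genes, the summed level of these ER genes was the highest, 9911 against 7394 and 7458 CPM in myeloid replicates 3 and 4.

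**Figure D5:**
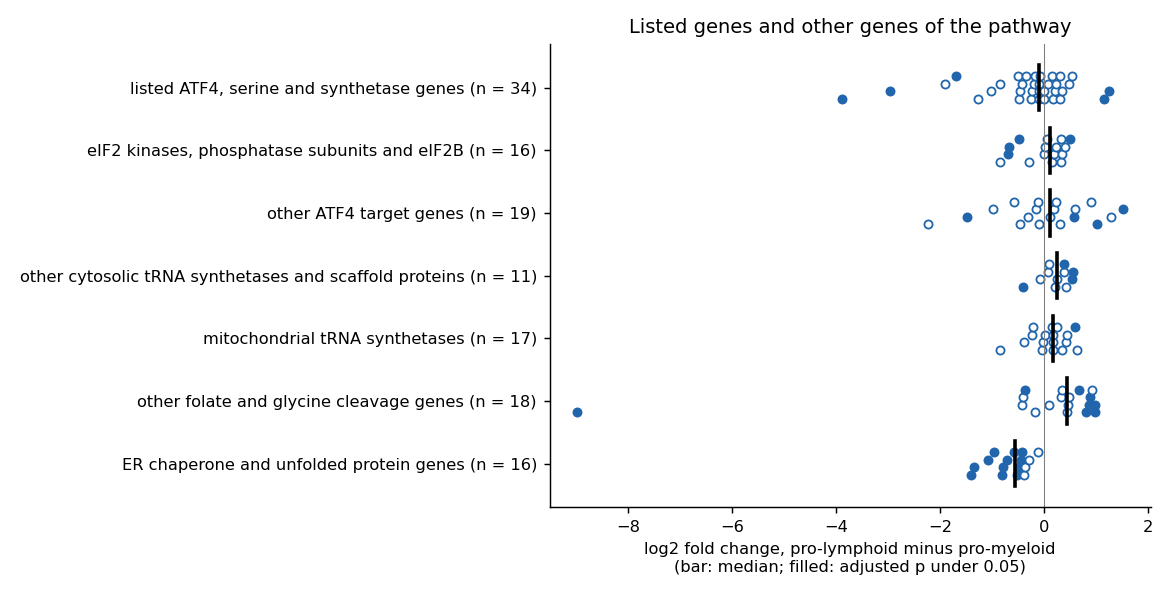
Log2 fold changes (x axis, pro-lymphoid minus pro-myeloid culture) of the 34 tested genes and of 6 lists of related genes (y axis, with the number tested), each point being 1 gene, filled where the edgeR adjusted p was under 0.05, with a bar at the median. The ER list has the lowest of the medians drawn, -0.557, and the folate list the highest, 0.439, with Aldh1l1 far off at -8.98.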

How the data were processed

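The deposited data are 1 table of raw counts per gene for 6 libraries. featureCounts 1.5.1 made the counts from primary alignments over exons of a UCSC mm10 annotation and with no strand option, per the file headers. Bowtie, TopHat, Trimmomatic and DESeq2 are further tools named, per the submitters' processing notes. Per the labels' protocols, libraries were poly(A)-selected and sequenced as single-end reads.

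The test across genes was that of edgeR 4.0.16 under R 4.3.3 (filterByExpr, TMM scaling, quasi-likelihood F test, two-sided) over the whole table, with Benjamini-Hochberg adjustment at 0.05. CPM values are TMM scaled, and the SE was derived from the F statistic. The procedure was tested on simulated data. Alternatives were other scalings, filters, DESeq2 1.42.0, limma-voom (limma 3.58.1), each library left out, a minimum absolute log2 fold change of 1 and, added after seeing the data, the older quasi-likelihood method of edgeR. The genes and lists were chosen with earlier results of these data known. All 35 genes are named, and up to 4 genes of each related list with the smallest adjusted p. Ero1a is in the table under its older symbol, Ero1l. Further genes (Eif2ak1, Eif2ak3, Eif2ak4) were named after their values were seen.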

Additional observations from a re-analysis of the deposited data

How the results depend on the processing

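The calls of Phgdh, Shmt1, Psph and Stc2 were kept in all 14 other settings, and that of Nupr1 in all but one, the fit without lymphoid replicate 6 (log2 fold change -2.59, adjusted p = 0.0584). Of the 476 values for the 34 tested genes, 441 kept their direction and their side of the threshold, 27 changed direction and 7 gained a call. With each library left out in turn, the listed genes that rose numbered 2 to 3 and those that fell 2 to 6, and over all tested genes 1298 to 2478 were higher and 1788 to 2907 lower. DESeq2 gave 5 listed genes as lower, adding Atf5 and Ddit4 (adjusted p = 0.0234 and 0.0150), against 23.3% of all tested genes. A minimum absolute log2 fold change of 1 left 985 genes higher and 1635 lower of all tested, as its construction requires. The share of higher among all calls was 45.0%, and 50.2% with upper-quartile scaling, which moved the median of all genes by 0.0472 on the log2 scale. Every change of direction was in a gene without a call. With single libraries left out, the log2 fold change ran from -0.49 to 0.059 for Ddit3, from -0.13 to 0.15 for Cebpg, from -0.90 to 1.94 for Cth, from -0.29 to 0.12 for Aldh18a1, from -0.027 to 0.55 for Psat1, from -0.20 to 0.47 for Mthfd2, from -0.29 to 0.020 for Aars, from -0.36 to 0.077 for Cars, from -0.10 to 0.30 for Lars, from -0.21 to 0.13 for Sars, from -0.24 to 0.066 for Tars and from -0.020 to 0.40 for Yars. That of Sars was 0.031 with upper-quartile scaling, 0.034 without scaling factors and 0.0023 in limma-voom. The cause was not tested. The labels carry a running replicate number over all 6 libraries and do not say whether the cultures were paired. No paired analysis was made. Low counts limit Vldlr, which was not tested, and Stc2 in lymphoid replicate 1 with 4 reads.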
